A study of Mus musculus with 8 samples.

Results

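Cholesterol that macrophages take up leaves the cell through ABC transporters, and the genes for this route are largely controlled by the liver X receptors (LXRs). These data describe 10 mouse genes of this route, chosen by name, among the 55487 genes of the deposited table. They are the receptor genes Nr1h3 (LXRα) and Nr1h2 (LXRβ), the exporter genes Abca1 and Abcg1, the lipoprotein genes Apoe and Pltp, the genes Mylip and Lpcat3 that LXR controls outside efflux, and the lysosomal cholesterol carrier genes Npc1 and Npc2. RNA was sequenced from J774A.1 cells, a mouse macrophage line, after 24 h with LPS (1 μg/mL), a bacterial wall component that activates macrophages, in 4 libraries labelled LPS. Another 4 libraries, labelled LPS + UDCA, received the same LPS together with ursodeoxycholic acid (UDCA, 1 mM), a secondary bile acid, for the same 24 h. The groups follow the sample labels, and the study's results text and figure legend also describe LPS-treated cells with and without UDCA. The methods text for the sequencing instead describes UDCA given in the presence or absence of LPS. All groups carry LPS and come from 1 cell line, and cells without LPS were not analysed here, so each comparison is between levels under LPS.

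LXRα and LXRβ are nuclear receptors that bind oxysterols and related sterols that accumulate with cholesterol. Each pairs with a retinoid X receptor (RXR) and binds direct repeats of 6 bases spaced by 4 bases. In macrophages their activation raises cholesterol export to ApoA-I and HDL, lowers lipoprotein uptake and changes the acyl chains of membrane phospholipids.

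Values were taken as TPM, in which reads are divided by gene length and scaled to a fixed library total. Levels can then be compared between genes. In the deposited columns that total differed slightly between the groups, as given under the processing. Differences are log2 fold changes of TPM + 1, LPS + UDCA against LPS, from limma, which fits each gene and steadies its variance with that of the others, with Benjamini-Hochberg adjustment (FDR) over the 11796 genes whose mean reached 1 TPM. A gene passed the test at an FDR under 0.05 and passed both thresholds when its fold change on that scale was also at least 2, the limits stated in the study's methods. TPM keeps no read number, so the depth behind each value is unknown, and errors are SDs over the libraries of a group (n = 4). On this scale the fold changes of low genes are understated. Of the 10 non-macrophage marker genes, 10 were under 1 TPM in every library and 5 were at 0 in all, with sums of 0.79 to 1.08 TPM with LPS and 0.04 to 0.57 TPM with LPS + UDCA. All 8 macrophage markers were expressed, and their summed TPM was 3100.0 to 3258 with LPS and 1221 to 1343 with LPS + UDCA. Lyz2, Cd68, Csf1r and Itgam fell past both thresholds, Adgre1 and Fcgr1 rose past them, and Ptprc and Spi1 rose by less. The part of this shift in the values below was not tested, and in bulk RNA fewer expressing cells cannot be told apart from less RNA per cell.

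The Abca1 promoter holds a well-known LXR binding motif, and the same letters were looked up in the other genes because they show which listed genes share it. The table of RefSeq promoters (GRCm38.p6, 250 bases before to 50 after each start) had an entry for 8 of the 10 genes. Abcg1 and Npc1 had none. The consensus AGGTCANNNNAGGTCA was searched on both strands. With at most 3 mismatches outside the spacer it matched 21.9% of the 32851 promoters, and of the 8 genes only Abca1. The Abca1 site itself has 3 mismatches, the most that were allowed. Without mismatches the consensus matched 5 promoters (0.0152%) and none of the 8 genes. Sites farther from the start were not searched. The form found in Abca1, GGGTTANNNNCGGTCA, was then searched without mismatches, a search chosen after the Abca1 match had been seen. It occurred in 3 of the 32851 promoters (0.00913%), those of Abca1, Srebf1 and Fasn. Srebf1 encodes the lipogenic transcription factor SREBP-1, and Fasn encodes fatty acid synthase. The windows are printed 5′ to 3′ on the plus strand, opposite to these genes, with the match in capitals.
Abca1: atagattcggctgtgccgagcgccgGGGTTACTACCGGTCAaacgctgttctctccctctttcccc
Srebf1: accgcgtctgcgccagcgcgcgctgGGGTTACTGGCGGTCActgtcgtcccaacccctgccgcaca
Fasn: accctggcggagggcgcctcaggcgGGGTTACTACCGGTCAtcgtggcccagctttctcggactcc
They lie at chr4:53159922-53159987, chr11:60210613-60210678 and chr11:120824732-120824797. The match lies 52 to 67 bases upstream of the Abca1 start, 167 to 182 bases upstream of the most downstream listed start of Srebf1, and 210 to 225 bases upstream of the Fasn start. A match describes letters and shows no binding. These 3 genes did not share a pattern: Abca1 was near 0 in both groups, Srebf1 did not pass the test (it did with median-of-ratios scaling), and Fasn fell, with values given further on.

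Of the 10 genes, 9 reached the mean of 1 TPM, and Abca1 did not. Nr1h3, Nr1h2, Npc1 and Pltp rose, Abcg1, Apoe, Mylip and Npc2 fell, and Lpcat3 did not pass the test. So 8 of 9 passed it, where 72.5% of all genes tested did. Upward these were 4 of 9 against 40.2%, and downward 4 of 9 against 32.3%. Past both thresholds Nr1h3 rose and Abcg1 fell, 2 of 9 genes against 17.1% of all genes tested (1 of 9 against 8.71% upward and 1 of 9 against 8.44% downward). The median log2 fold change was 0.08 over the 9 genes and 0.08 over all genes tested, and both were -0.02 with median-of-ratios scaling. Over 9 genes these shares were not read as differing from the background, and what follows is which genes moved in which direction. The ranges of both groups were separate in 8 of the 9 genes, against 66.8% of all genes tested. The plot of TPM by library shows the 10 genes on axes that start at 0.

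**Figure D1:**
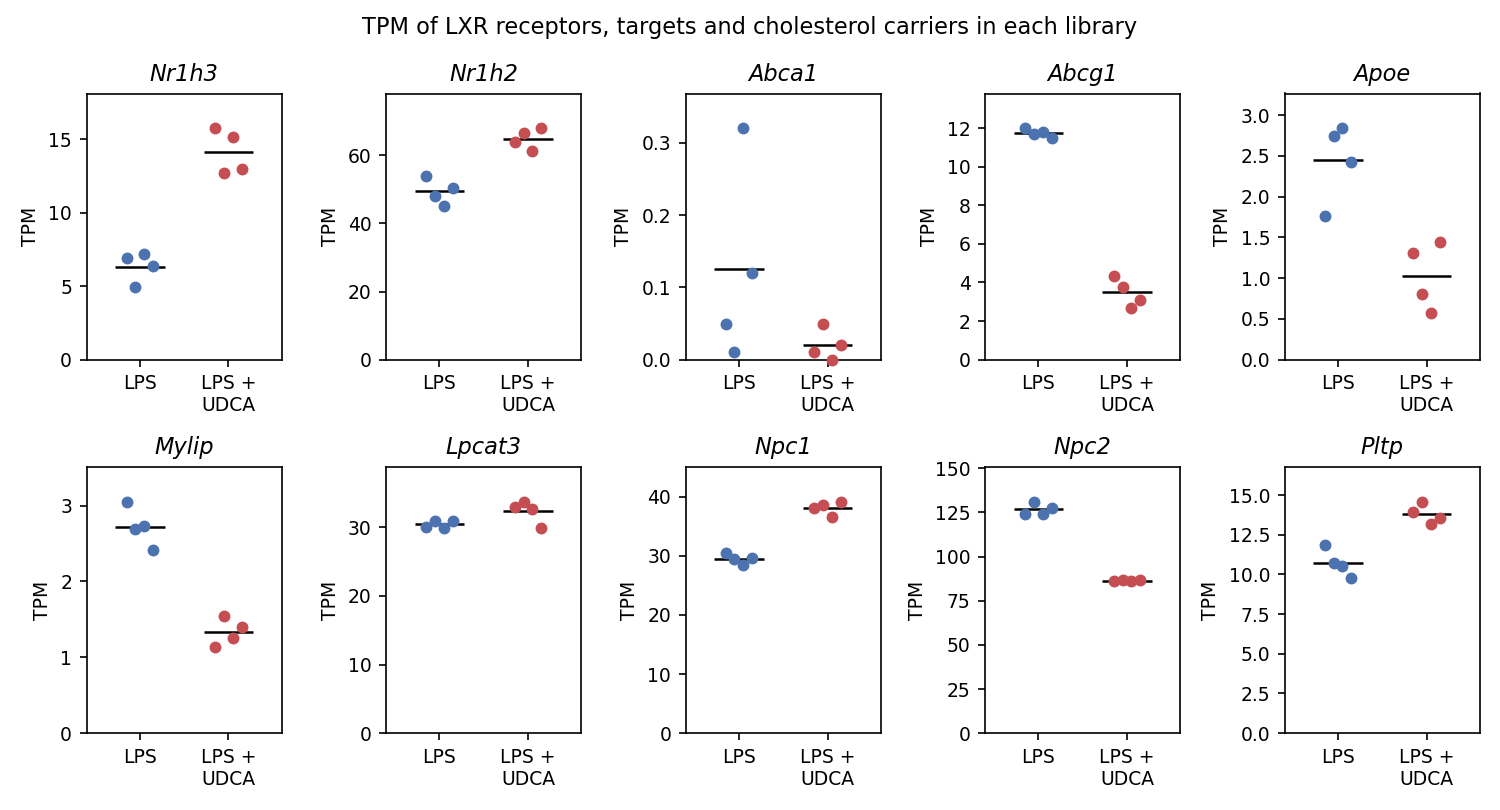
TPM (vertical axis of each panel, starting at 0) of the 10 genes in each of the 4 LPS (blue) and 4 LPS + UDCA (red) libraries, with the group mean as a bar. The groups stand apart in 8 panels and overlap for Abca1, where no library exceeds 0.32 TPM, and for Lpcat3.

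Nr1h3, on chromosome 2 from 91184061 to 91202834 of GRCm38, encodes LXRα. It had 6.89, 4.91, 7.16 and 6.38 TPM in LPS replicates 1 to 4 and 15.74, 12.69, 15.11 and 12.94 TPM in LPS + UDCA replicates 1 to 4. Every LPS + UDCA library lay above every LPS library, and the lowest value was LPS replicate 2. The means were 6.33 ± 1.00 and 14.12 ± 1.53 TPM, a log2 fold change of 1.05 (SE 0.12, limma FDR of 3.29e-05). This is just past the fold change minimum: it was 0.95 without LPS replicate 2, 0.998 without LPS + UDCA replicate 1, 0.95 with median-of-ratios scaling and 0.97 with quantile normalization. The FDR stayed under 0.05 in each of these.

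Nr1h2, on chromosome 7 from 44549616 to 44553951, encodes LXRβ, the more widely expressed receptor. It had 54.01, 48.13, 45.17 and 50.42 TPM with LPS and 63.95, 66.43, 61.31 and 67.92 TPM with LPS + UDCA. The groups did not overlap, and the means were 49.4 ± 3.73 and 64.9 ± 2.90 TPM (log2 fold change 0.39, SE 0.06, limma FDR of 2.90e-04). Nr1h2 was thus at the higher level of the pair in every library. Within a library, Nr1h3 made up 11.4% ± 1.81 of the summed TPM of both receptors with LPS and 17.9% ± 2.16 with LPS + UDCA. The LPS libraries ran from 9.26% to 13.7% and those with UDCA from 16.003% to 19.8%, without overlap. The difference was 6.52 percentage points (exact permutation test over 70 arrangements, 2-sided p = 0.029, the smallest it can give, and 0.043 after adjustment over 3 shares). This share does not depend on how a library is scaled.

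Abca1, on chromosome 4 from 53030787 to 53159895, encodes the transporter that loads cholesterol and phospholipid onto lipid-poor ApoA-I. It had 0.05, 0.01, 0.32 and 0.12 TPM with LPS and 0.01, 0.05, 0 and 0.02 TPM with LPS + UDCA. The groups overlapped, every library was below 1 TPM, and the single highest value was LPS replicate 3. Abca1 was below the filter and was not in the limma fit. An exact permutation test of log2(TPM + 1) gave a 2-sided p of 0.2. With all genes above 0 TPM in the fit the log2 fold change was -0.13 (limma FDR of 0.23). As the number of reads behind these TPM is unknown, they show a level near 0 and no direction. None of the 31-base words of its transcripts occurs in another gene of the annotation.

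Abcg1, on chromosome 17 from 31057675 to 31117988, encodes the transporter that exports cholesterol to mature HDL. It had 11.99, 11.69, 11.79 and 11.48 TPM with LPS, a narrow range, and 4.35, 3.77, 2.69 and 3.11 TPM with LPS + UDCA. The highest LPS + UDCA library was below the lowest LPS library by a wide gap. The means were 11.74 ± 0.212 and 3.48 ± 0.731 TPM, a 3.37-fold difference in TPM and the largest change among the 9 tested genes (log2 fold change -1.52, SE 0.11, limma FDR of 2.33e-06). Abcg1 supplied nearly all of the summed TPM of both exporters, since Abca1 made up 0.0855% to 2.64% with LPS and 0 to 1.31% with LPS + UDCA. That share did not differ detectably (exact permutation test, p = 0.57). The order of receptor and exporter changed, with Abcg1 above Nr1h3 in 4 of 4 LPS libraries and Nr1h3 above Abcg1 in 4 of 4 LPS + UDCA libraries.

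Apoe and Pltp encode proteins that act on lipoproteins outside the cell. Apoe, on chromosome 7 from 19696109 to 19699188, encodes apolipoprotein E, an acceptor of exported cholesterol. It was low, with 1.76, 2.75, 2.84 and 2.43 TPM with LPS and 1.31, 0.81, 0.57 and 1.44 TPM with LPS + UDCA. The groups did not overlap, although LPS replicate 1 and LPS + UDCA replicate 4 were close, and the means were 2.44 ± 0.489 and 1.03 ± 0.411 TPM. The log2 fold change was -0.77 (SE 0.18, limma FDR of 0.0035). At such levels the added 1 TPM shrinks the fold change, and with 0.1 in its place it was -1.22, past the minimum.

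Pltp, on chromosome 2 from 164839518 to 164857711, encodes the phospholipid transfer protein, which remodels HDL. It had 11.86, 10.71, 10.51 and 9.77 TPM with LPS and 13.91, 14.58, 13.15 and 13.57 TPM with LPS + UDCA. All LPS + UDCA libraries were higher, at 13.8 ± 0.604 against 10.71 ± 0.865 TPM (log2 fold change 0.34, SE 0.07, limma FDR of 0.0015). Pltp overlaps Ctsa, a lysosomal protease gene on the opposite strand, which had 713 to 754 TPM with LPS and 447 to 496 TPM with LPS + UDCA. The 2 genes moved in opposite directions. Whether the counting used the strand is not given in the sources used here, and the part of Ctsa in the Pltp values was not tested.

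Mylip and Lpcat3 are LXR targets that act on uptake and membranes. Mylip, on chromosome 13 from 45389742 to 45412022, encodes IDOL, a ubiquitin ligase that marks lipoprotein receptors for degradation. It had 3.05, 2.69, 2.73 and 2.41 TPM with LPS and 1.14, 1.55, 1.26 and 1.40 TPM with LPS + UDCA. The groups did not overlap, and the means were 2.72 ± 0.262 and 1.34 ± 0.177 TPM, a 2.03-fold difference in TPM. On the log2(TPM + 1) scale it fell by 0.67 (SE 0.11, limma FDR of 3.95e-04).

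Lpcat3, on chromosome 6 from 124663027 to 124704418, encodes the acyltransferase that puts polyunsaturated chains into phosphatidylcholine. It had 30.09, 30.99, 29.96 and 30.90 TPM with LPS and 32.95, 33.74, 32.70 and 29.92 TPM with LPS + UDCA. In LPS + UDCA 3 libraries lay above and replicate 4 below all LPS libraries. The log2 fold change was 0.08 (95% confidence interval -0.03 to 0.19, limma FDR of 0.16), and it was -0.02 with median-of-ratios scaling. Without LPS + UDCA replicate 4 it was 0.12 (limma FDR of 0.035). Lpcat3 overlaps the opposite-strand gene Emg1, which had 193 to 210.03 TPM with LPS and 113 to 123 TPM with LPS + UDCA. The part of Emg1 in these values was not tested.

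Npc1 and Npc2 work in turn to move cholesterol freed in lysosomes out to the cell, NPC2 as the soluble carrier and NPC1 as the membrane protein that receives it. Npc1, on chromosome 18, had 30.39, 29.47, 28.41 and 29.67 TPM with LPS and 38.10, 38.56, 36.57 and 39.12 TPM with LPS + UDCA (29.5 ± 0.818 and 38.1 ± 1.09 TPM). It rose by a log2 fold change of 0.36 (SE 0.04, limma FDR of 5.08e-05). The gene Rmc1 overlaps Npc1 on the opposite strand and was at 25.6 to 29.3 TPM with LPS and 26.8 to 32.8 TPM with LPS + UDCA. Its part in these values was not tested.

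Npc2, on chromosome 12 from 84754562 to 84773152, had the highest level of the 10 genes in every library, with 124.13, 131.08, 124.13 and 127.48 TPM with LPS and 86.03, 86.64, 86.20 and 86.54 TPM with LPS + UDCA. It fell, with means of 126.7 ± 3.32 and 86.4 ± 0.286 TPM (log2 fold change -0.55, SE 0.03, limma FDR of 5.31e-07). The 2 carriers thus moved in opposite directions. Npc1 made up 18.9% ± 0.566 of their summed TPM with LPS and 30.6% ± 0.575 with LPS + UDCA, with ranges of 18.4% to 19.7% and 29.8% to 31.1%. The difference was 11.7 percentage points (exact permutation test, p = 0.029, the smallest it can give, and 0.043 after adjustment over 3 shares). Since Npc1 rose and Npc2 fell without overlap, this share had to separate the groups. The test therefore adds nothing to the 2 changes above.

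**Figure D2:**
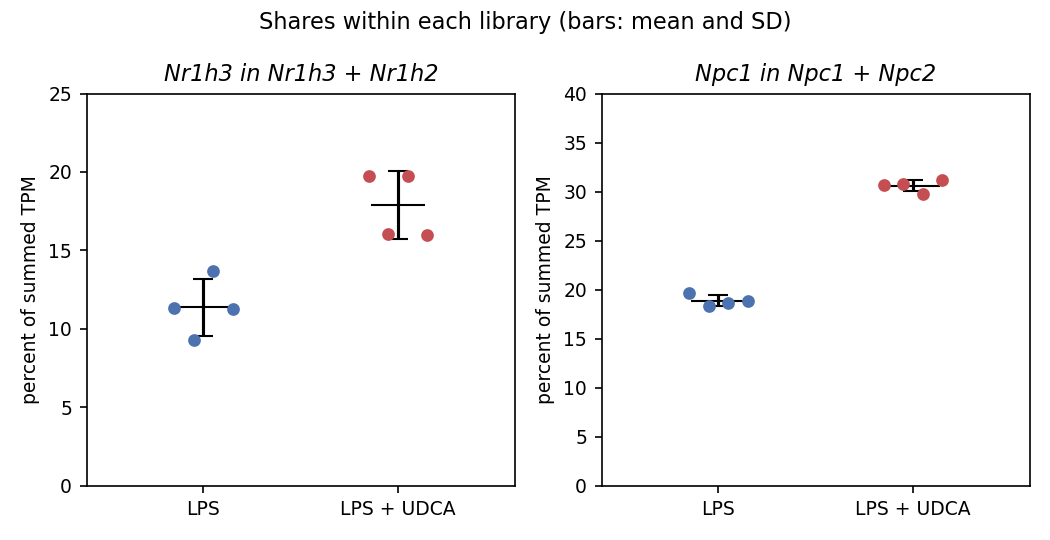
Share of Nr1h3 in the summed TPM of Nr1h3 and Nr1h2 (left) and of Npc1 in that of Npc1 and Npc2 (right), in percent, in each of the 4 LPS (blue) and 4 LPS + UDCA (red) libraries, with group means and SD as bars. The Nr1h3 share lies between 9.26% and 13.7% with LPS and between 16.003% and 19.8% with LPS + UDCA, and the Npc1 share near 18.9% and 30.6%.

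By mean TPM with LPS, the order of the genes was Npc2, Nr1h2, Lpcat3, Npc1, Abcg1, Pltp, Nr1h3, Mylip, Apoe and Abca1. The ranges of Lpcat3 and Npc1, of Abcg1 and Pltp, and of Mylip and Apoe overlapped. Within each LPS library Abcg1 was still above Pltp, while the order inside the other pairs changed between libraries. No test of these neighbours was made. With LPS + UDCA the order was Npc2, Nr1h2, Npc1, Lpcat3, Nr1h3, Pltp, Abcg1, Mylip, Apoe and Abca1, with overlap between Nr1h3 and Pltp and between Mylip and Apoe. Abcg1 moved from rank 5 to rank 7, and Nr1h3 from rank 7 to rank 5.

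**Figure D3:**
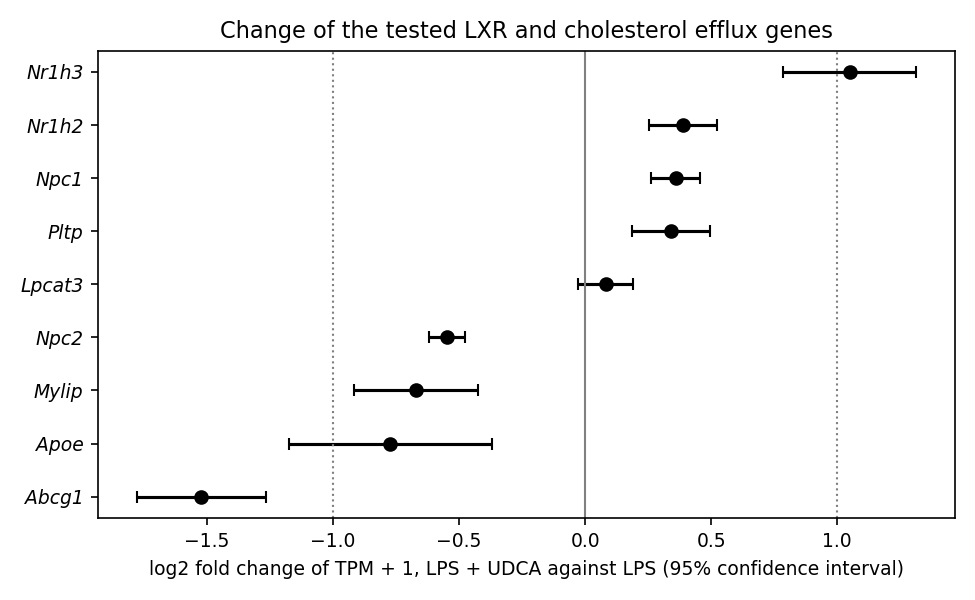
Log2 fold change of TPM + 1, LPS + UDCA against LPS, of the 9 tested genes (horizontal axis), with 95% confidence intervals from limma, 4 libraries per group. Dotted lines mark a fold change of 2: the interval of Abcg1 lies wholly past it, those of Nr1h3 and Apoe cross it, and that of Lpcat3 includes 0.

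Other genes of the pathway were taken from lists. The counts below are to be read against all genes tested, of which 40.2% rose and 32.3% fell, with a median log2 fold change of 0.08. For the sterol ligand enzymes and the lipoprotein receptors single genes are given, without counts over the list. Among 12 other LXR targets, 7 were tested, of which 2 rose and 2 fell (median log2 fold change -0.06). Fasn fell past both thresholds, from 128 ± 5.74 to 61.0 ± 4.07 TPM (log2 fold change -1.06, limma FDR of 2.65e-07), and was at -0.99 with quantile normalization. Smpdl3a, which encodes a secreted phosphodiesterase related to acid sphingomyelinase, rose past both thresholds, from 2.21 ± 0.345 to 7.28 ± 0.796 TPM (log2 fold change 1.37). The lipoprotein lipase gene Lpl also rose, from 108 ± 5.48 to 180.1 ± 7.20 TPM, and Apoc2 fell at levels under 3 TPM, with 78.8% of its 31-base words shared with Gm44805. Srebf1 had 38.9 to 46.4 TPM with LPS and 35.5 to 41.3 TPM with LPS + UDCA (log2 fold change -0.06, limma FDR of 0.43). With median-of-ratios scaling Srebf1 was at -0.17 and passed the test (limma FDR of 0.038). Apoc1 and Mertk were listed at 0 in every library, and Apoc4, Arl4c and Cd5l had means under 1 TPM. The targets thus included genes that rose, genes that fell and genes that did not pass the test.

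Of 13 partners and coregulators of the LXRs, 12 were tested, 5 rose and 3 fell (40.2% and 32.3% of all genes tested), and 0 passed both thresholds (median 0.03, but -0.08 with median-of-ratios scaling and -0.01 with quantile normalization). With TPM rescaled to equal sums Nrip1 passed both at 1.01. The main RXR gene here was Rxrb, at 55.3 to 60.8 TPM with LPS and 53.4 to 57.9 TPM with LPS + UDCA, and it did not pass the test (log2 fold change -0.05), though it did with median-of-ratios scaling (-0.16). Rxra was lower in level and rose, from 0.725 ± 0.245 to 2.34 ± 0.507 TPM (log2 fold change 0.95). Rxrg was listed at 0 in every library. The corepressor gene Ncor1 rose, with a log2 fold change of 0.55, and Nrip1, which encodes the corepressor RIP140, had the highest of the list (0.98).

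Enzymes that make or remove sterol ligands of the LXRs were led by Cyp27a1, the sterol 27-hydroxylase of macrophages. It had 10.13, 11.21, 9.11 and 9.17 TPM with LPS and 1.23, 1.29, 1.13 and 0.96 TPM with LPS + UDCA. The groups were far apart, an 8.59-fold difference in mean TPM (log2 fold change -2.34, SE 0.10, limma FDR of 6.64e-08). Hsd3b7, an enzyme of oxysterol and bile acid metabolism, rose (0.77), but 54.8% of its 31-base words occur in Gm49388. Sult2b1 did not pass the test, and Ch25h, Cyp46a1 and Cyp7b1 were listed at 0 in every library.

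Of 5 other genes of cholesterol export, 2 were tested (median -0.23, and -0.01 over the list genes above 0 TPM in any library). Scarb1, which encodes the HDL receptor SR-BI, fell from 66.1 ± 0.571 to 42.9 ± 3.93 TPM (log2 fold change -0.62, limma FDR of 1.70e-05), and Abca7 did not pass the test (0.15, limma FDR of 0.077, or 0.04998 with TPM rescaled to equal sums). Abcg1 and Scarb1 were thus both lower, while Abca7 did not pass the test and Abca1 and Abcg4 were below the filter. Beside Npc1 and Npc2, 11 of 11 genes of lysosomal and interorganelle sterol transport were tested, of which 6 rose and 2 fell, against 40.2% and 32.3% of all genes tested (median 0.19, and 0.05 with the filter at a mean of 5 TPM). Osbpl2, which encodes an oxysterol binding protein relative that moves lipid at membrane contacts, rose past both thresholds, from 33.6 ± 0.863 to 73.1 ± 3.25 TPM (log2 fold change 1.10, and 0.99 with median-of-ratios scaling). Scp2 was lowest (-0.42), with 33.4% of its words shared, most often with Scp2-ps2. Lipa, the lysosomal acid lipase gene, did not pass the test.

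All 5 genes of cholesteryl ester storage passed the test, as did 72.5% of all genes tested, and 4 of the 5 rose, against 40.2%. Plin2, the lipid droplet coat gene, had the highest log2 fold change (0.63), with 152 ± 3.22 TPM under LPS and 236 ± 9.84 TPM under LPS + UDCA, and the lipase gene Lipe fell (-0.22). Soat1, Soat2 and Nceh1, for ester synthesis and hydrolysis, rose by log2 fold changes of 0.14, 0.38 and 0.38, and the median was 0.38. With median-of-ratios scaling Soat1 was at 0.03 and did not pass the test. Among lipoprotein receptors, the gene of the IDOL substrate Lrp8 rose. IDOL acts on receptor protein, which these data do not measure, and a link to the fall of Mylip was not tested. Lrp8 went from 7.42 ± 0.719 to 11.2 ± 1.97 TPM (log2 fold change 0.53, limma FDR of 0.0023). Lrp1, a large scavenging receptor, fell past both thresholds, from 167 ± 13.4 to 52.0 ± 8.15 TPM (log2 fold change -1.67). Vldlr, another substrate, was listed at 0 in every library.

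Lpcat3 stood beside 7 other lysophospholipid acyltransferase genes, of which 6 were tested, 5 fell, against 32.3% of all genes tested, and 1 did not pass the test (median -0.86). Mboat1 fell from 8.50 ± 0.682 to 2.19 ± 0.385 TPM (log2 fold change -1.58) and Lpcat4 from 33.7 ± 1.46 to 12.3 ± 2.27 TPM (-1.40), both past both thresholds. Lpcat1, Lpcat2 and Mboat7 fell by 0.71, 0.86 and 0.86 on the log2 scale. Lclat1 was highest (0.30, limma FDR of 0.19). The difference between Lpcat3 and these genes was not tested.

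The sterol-sensing counterpart of LXR, SREBP2, turns on cholesterol synthesis. Of 12 genes of this arm, 12 were tested, 6 rose and 0 fell at an FDR under 0.05, with 0 past both thresholds (median 0.19). By limma's unadjusted p under 0.05, 7 were higher and 0 lower, and with median-of-ratios scaling 4 rose, 0 fell and 1 was lower by unadjusted p. Of all genes tested 40.2% rose and 32.3% fell by the same test. Hmgcs1 was highest (0.69) and Lss lowest (-0.02, limma FDR of 0.80). Insig1 did not pass the test. Of the PPARs, which can raise Nr1h3, Pparg was at 0 to 0.11 TPM and Ppara at 0, and Ppard fell slightly (log2 fold change -0.18). These are mRNA levels, and a link between the PPARs and the rise of Nr1h3 was not tested. Of the bile acid receptors, FXR (Nr1h4), its relative Nr1h5 and TGR5 (Gpbar1) were at 0 to 0.07 TPM in every library, and so were Vdr and Nr1i2. Nr0b2, listed beside these receptors, encodes SHP, the small heterodimer partner. It had 1.29 to 2.05 TPM with LPS and 0.07 to 0.42 TPM with LPS + UDCA. These groups did not overlap, but the mean level was under the filter, so Nr0b2 was not in the main fit.

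**Figure D4:**
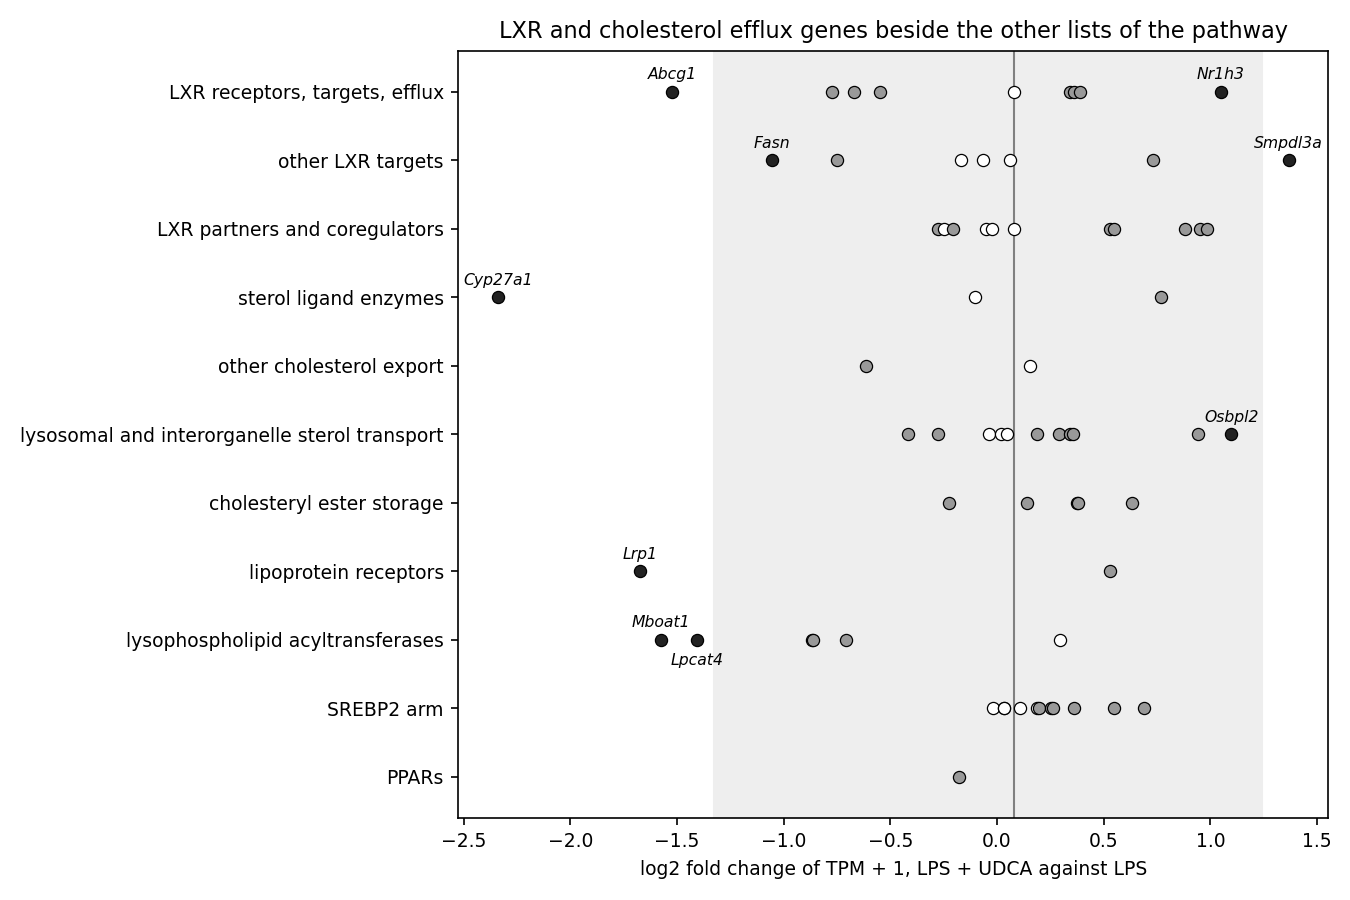
Log2 fold change of TPM + 1, LPS + UDCA against LPS (horizontal axis), of the tested genes reported here of the LXR and cholesterol efflux genes and of 10 lists of the pathway. Black points passed both thresholds and are named, grey points passed an FDR under 0.05, white points did not, and the shaded band holds the middle of all genes tested, from -1.33 (5th percentile) to 1.24 (95th percentile), with their median as a line.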

How the data were processed

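The authors deposited 1 table of TPM per gene, with 1 column per library and 2 decimals. That the unit is TPM was read from the column sums, 973190 to 977485 with LPS and 958918 to 962737 with LPS + UDCA. The sums thus differed between the groups, and rescaling to equal sums was among the alternatives. The submitters' processing notes name Bowtie 0.12.2, mm10 and GRCm38; the program that made the TPM is not given in the sources used here. The members and gene lists were chosen with earlier results of these data known. Libraries were grouped by their titles, and nothing says that they came from separate cultures, so p-values measure the spread between these libraries.

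Genes whose mean reached 1 TPM were fitted as log2(TPM + 1) with limma 3.58.1 (R 4.3.3, lmFit and eBayes with trend). Single values were compared by exact 2-sided permutation tests over 70 arrangements (SciPy 1.17.1). The fit was tested on simulated data. All 10 genes were named, and from each list those past both thresholds, the highest and the lowest fold change. Each gene listed with the bile acid receptors was also named. Genes named beyond this were chosen after their values were seen. Positions, overlaps and shared 31-base words are from GENCODE M21 on GRCm38, and promoters from RefSeq (GRCm38.p6). Alternatives covered the pseudocount, filter, normalization, variance trend, fold change minimum, replicate block and each library left out. Python 3.11.15 and matplotlib 3.10.9 drew the figures. A few list genes are not reported here, though counts and medians of their lists include them.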

Additional observations from a re-analysis of the deposited data

Results flagged for a closer look

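The 10 genes, the list genes past both thresholds and the 3 shares gave 42 groups of 4 values, each checked for a library far from the rest with Dixon's ratio at its 95% limit. Of these 1 group was past the limit, and chance gives about 2.1. For Mboat1, LPS + UDCA replicate 4 was highest, at 2.77 TPM, while the other LPS + UDCA libraries had 1.96 to 2.03 TPM, and all 4 stayed below the LPS libraries.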

How the results depend on the processing

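Except for Lpcat3, the 9 tested genes kept their direction and an FDR under 0.05 in every alternative in which they were tested; with the filter at a mean of 5 TPM, Apoe and Mylip were not tested and 2 of the genes fell. The log2 fold change of Lpcat3 was -0.025 with median-of-ratios scaling. Past both thresholds 0 genes rose with median-of-ratios scaling or quantile normalization, and 0 to 1 with each library left out (0 without LPS replicate 2 or LPS + UDCA replicate 1). Past both thresholds 2 fell with a pseudocount of 0.1, 2 with that pseudocount and all genes above 0 TPM (a setting chosen after seeing the data), and 3 at a fold change minimum of 1.5.

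Over all genes, 1028 rose and 995 fell past both thresholds. The balance turned to 810 and 1167 with median-of-ratios scaling and to 874 and 1088 with quantile normalization, and by FDR alone 4107 rose and 4445 fell with median-of-ratios scaling, against 4741 and 3807. Past both thresholds, with the fold change minimum at 1.5, the counts were 2574 and 2076, with all genes and a pseudocount of 0.1 they were 2211 and 1578, and with the filter at 5 TPM 683 rose and 742 fell. The median log2 fold change of the partners and coregulators was -0.052 with the filter at 5 TPM, -0.077 with median-of-ratios scaling, -0.012 with quantile normalization and -0.0097 (without LPS replicate 3) to 0.080 (without LPS replicate 1) with each library left out. That of the PPARs was -0.18 in the main fit, where only Ppard was tested. It was 0.089 with all genes and a pseudocount of 0.1, where Pparg, at 0 to 0.11 TPM, also entered.

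With 1 library left out, the Nr1h3 share differed by 5.82 to 7.29 and the Npc1 share by 11.5 to 11.99 percentage points, with p = 0.057 from the exact permutation test, the smallest that 4 against 3 libraries allow. The Abca1 share differed by -0.82 to 0.033 percentage points, the positive value being that without LPS replicate 3. The replicate numbers were not taken as pairs, though these values do not settle whether they are. Of 4 same-numbered pairs, 3 had a correlation of deviations over 0.1 (range -0.035 to 0.15, mean 0.088). Differently numbered pairs ran from -0.14 to 0.16. The best match had the same number for 2 of 4 LPS and 3 of 4 LPS + UDCA libraries. With the replicate block, 1034 genes rose and 1000 fell past both thresholds, 2020 of them also without it, and each of the 9 genes kept its call. The shares, 6.52 and 11.7 percentage points, had p = 0.125 from the paired exact sign-flip test, its smallest. TPM keeps no depth, which limits what can be said of Abca1.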
